A study of Gossypium hirsutum with 6 samples.

Results

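Rubisco activase (RCA1) and phosphoenolpyruvate carboxylase (PEPC1) are 2 enzymes of leaf carbon metabolism. Their transcripts were measured in leaves of droughted and irrigated upland cotton (Gossypium hirsutum, cultivar Bikaneri Nerma). The members are all probe sets that the platform's gene table pairs with exactly 1 gene whose RefSeq synonyms include RCA1 or PEPC1. The rule gave 2 genes of 246 with a name and 2 probe sets of 24029 tested, 1 for each gene: Ghi.1138.1.S1_at for RCA1 (LOC107942112) and Ghi.8053.1.S1_s_at for PEPC1 (LOC107888527). Both genes were chosen from results already known for these 6 arrays, in which the drought minus control difference was positive. Their differences are therefore given as a description, with no test. All plants were of the same cultivar and grew in adjacent open-field plots, 6 per arm. Leaves of 3 control samples came from plots that kept their water, and leaves of 3 drought samples came from plots where irrigation stopped at peak flowering. A rain-out shelter was moved over the drought plots when it rained. They were sampled after 18 to 19 days, at a soil moisture of 19.5%, which was 50% of that in the control plots.

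Rubisco fixes carbon dioxide in the Calvin cycle, and its active site is easily blocked by sugar phosphates. Rubisco activase is a chloroplast ATPase that pulls these inhibitors off, and in leaves it sets how much of the Rubisco present is active. It is known for its sensitivity to heat, which often comes with drought in the field. PEP carboxylase is a cytosolic enzyme that adds bicarbonate to phosphoenolpyruvate to make oxaloacetate. In leaves of plants such as cotton, which fix carbon by the Calvin cycle alone, PEP carboxylase refills the organic acid pool that amino acid synthesis draws on, and it makes malate in guard cells.

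In drought leaves the signals of both genes were higher than in control leaves, by nearly the same amount. RCA1 was higher by 0.60 on the log2 scale (limma SE 0.068, n = 3 arrays per group), a fold of 1.52. PEPC1 was higher by 0.60 (limma SE 0.072, n = 3), also a fold of 1.52. With arrays centred on hybridisation spike-ins, added controls that were themselves higher on drought arrays, these differences were 0.36 (limma SE 0.13) for RCA1 and 0.35 (limma SE 0.13) for PEPC1. The increases were moderate: neither reached 1 log2 unit, and about 15% of all tested probe sets had a larger one.

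The values are log2 signals from which the median over the 6 arrays was subtracted for each probe set, so a value of 0 is the middle of the 6 arrays and no value is an absolute level. On RCA1, the control arrays (replicates 1, 2 and 3) gave -0.28, -0.27 and -0.36, and the drought arrays gave 0.27, 0.30 and 0.32 in the same order. The groups did not overlap, and the lowest drought array was 0.54 above the highest control array. The control mean was -0.30 ± 0.053 (SD, n = 3) and the drought mean 0.30 ± 0.027 (SD, n = 3). Control replicate 3 stood lowest, 0.061 below its group's mean, and the drought arrays spanned 0.053 in all.

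On PEPC1, the control replicates had values of -0.27, -0.26 and -0.28, and the drought replicates had values of 0.43, 0.26 and 0.31. The groups were again separate, with a gap of 0.52 between the lowest drought and the highest control array. The control mean was -0.27 ± 0.011 (SD, n = 3) and the drought mean 0.33 ± 0.087 (SD, n = 3). The wider spread was thus among control arrays for RCA1 and among drought arrays for PEPC1. The control arrays spanned 0.093 on RCA1 and 0.022 on PEPC1, and the drought arrays 0.053 on RCA1 and 0.17 on PEPC1, where drought replicate 1 stood highest. The middle 2 arrays of each gene are mirror images around 0 because the median was subtracted, which leaves differences and SDs as they were.

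**Figure D1:**
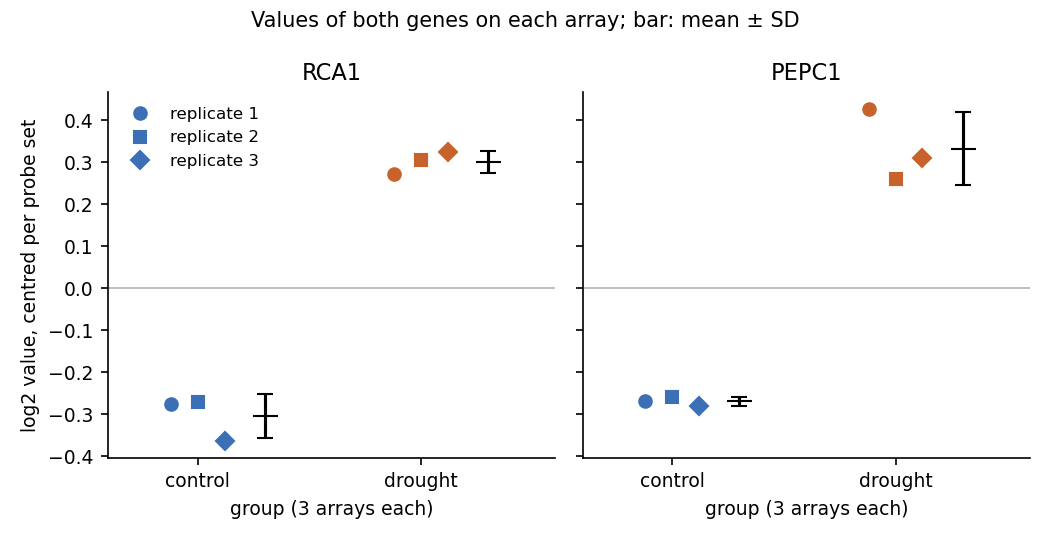
Log2 value, centred per probe set, on each of the 6 arrays for RCA1 (left) and PEPC1 (right); points are arrays, with a shape for each replicate number, and bars are the group mean ± SD (n = 3). Drought arrays lie between 0.26 and 0.43 and control arrays between -0.36 and -0.26 over both genes, with no overlap.

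In bulk leaf tissue, more RNA per cell and more cells that hold the transcript cannot be told apart. The PEPC1 probe set carries the suffix _s_at, which Affymetrix gives to sets whose probes match more than 1 transcript. Upland cotton is an allotetraploid with 2 subgenomes, and PEP carboxylase is a gene family in plants, so the PEPC1 value may hold signal of related copies. The RCA1 probe set has no such suffix, but the share of its subgenome copies in the signal is unknown. Each gene rests on a single probe set, so no second measurement of either was at hand.

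Set side by side array by array, RCA1 minus PEPC1 was -0.0077, -0.013 and -0.084 on the control arrays (replicates 1, 2 and 3) and -0.16, 0.045 and 0.016 on the drought arrays. The widest separation was thus on drought replicate 1, where PEPC1 stood above RCA1. The drought minus control differences of the pair were 0.0035 apart (SE 0.067, from the spread of the array-wise values). Probe sets differ in how far they compress a change in RNA, so this closeness is of measured signals.

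Against the whole array, both genes lay on the upper shoulder of the differences. The median difference over the 24029 tested probe sets was 0.12, the upper quartile was 0.39 and the 95th percentile was 1.17. RCA1 was larger than 85.0% of them and PEPC1 larger than 84.9%, with only 25 probe sets between the pair. Above RCA1 stood 3602 probe sets that were more strongly raised, and 2945 were lowered by more than RCA1 was raised. Counting both directions, 27.2% of probe sets had a larger absolute difference than RCA1 and 27.4% a larger one than PEPC1.

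**Figure D2:**
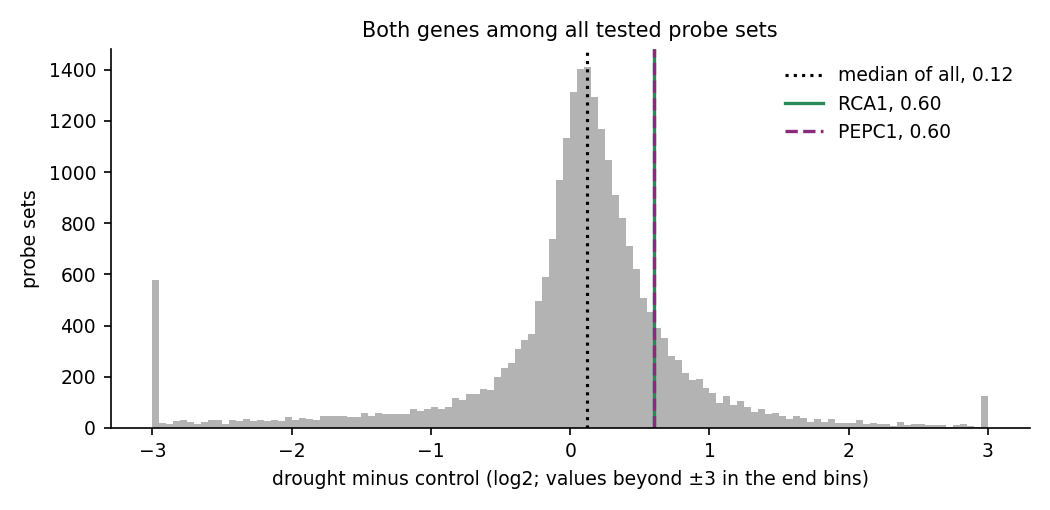
Histogram of drought minus control differences (log2) of all 24029 tested probe sets, in bins that collect values beyond ±3 at the ends; vertical lines mark the median of all (0.12), RCA1 (0.60) and PEPC1 (0.60). The lines of both genes coincide to the right of the main peak.

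Read against the probe sets of their own suffix, the places were similar. RCA1 exceeded 84.5% of the 12727 probe sets without a suffix, whose median was 0.13, and PEPC1 exceeded 85.3% of the 9290 with _s_at, whose median was 0.10. Among the 246 genes with a name, for which 1 probe set per gene was taken by its ID, RCA1 ranked 47 and PEPC1 ranked 48 from the largest increase downward. The median of these 246 genes was -0.11, below that of the whole array. Replicate arrays were close together on both probe sets. The pooled within-group SD was 0.042 for RCA1, smaller than in all but 5.43% of probe sets, and 0.062 for PEPC1, smaller than in all but 15.6%, against a median of 0.11.

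At an adjusted p of 0.05 in limma, a test across all probe sets with the Benjamini-Hochberg adjustment, 2 of the 2 genes were called higher. Of all tested probe sets 55.7% were called in either direction and 35.3% were called higher. Complete separation, with every drought array above every control array, was seen for 2 of the 2 genes and for 40.1% of all probe sets. A difference of at least 1 log2 unit, higher in drought, was found for 0 of the 2 genes and for 6.63% of all probe sets. After centring on the spike-ins the shares of all probe sets turned, to 16.6% called higher and 30.2% lower, against 35.3% and 20.4% as deposited. Since the members were proposed with this comparison known, nothing is read from these counts. Among the 8485 probe sets called higher, the median difference was 0.53, and RCA1 exceeded 57.5% and PEPC1 57.2% of them.

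Probe sets that measure no leaf transcript also moved with the group. The 27 hybridisation spike-in probe sets, whose targets are added to every array in set amounts, had array medians of -0.14, -0.012 and -0.13 in control and 0.19, 0.25 and 0.012 in drought replicates 1, 2 and 3. Their array median was higher in drought by 0.25, the median of 42 poly-A controls by 0.22, and the median of 52 reporter probe sets, made for foreign sequences, by 0.056. The array medians of the groups were separate in all 3 classes. Single control probe sets reached at most 0.44 among the hybridisation spike-ins, 0.41 among the poly-A spike-ins and 0.51 among the reporters. Of these 121 control probe sets, 0 were raised as much as RCA1 or PEPC1. Both genes were chosen with their increase known, so nothing is read from this count. The 3' minus 5' difference of the actin, ubiquitin and sucrose synthase quality control probe sets is a measure of RNA integrity. It changed by -1.83 to 0.64 over 6 such pairs. The -1.83 came from a single sucrose synthase pair, and the other pairs ran from -0.57 to 0.64. The sucrose synthase gene Sus1 itself fell by 1.93, and whether the -1.83 reflects RNA integrity was not tested. The part of RNA integrity in the differences of RCA1 and PEPC1 was not tested.

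After centring each array to its own hybridisation controls, the RCA1 difference was 0.36 (limma SE 0.13), a fold of 1.28, and that of PEPC1 was 0.35 (limma SE 0.13), also a fold of 1.28. These are 1.69 and 1.70 times smaller than the log2 differences as deposited. RCA1 then stood at -0.13, -0.26 and -0.23 on the control arrays and at 0.077, 0.059 and 0.31 on the drought arrays, in replicate order. PEPC1 stood at -0.12, -0.25 and -0.15 in control and at 0.23, 0.013 and 0.30 in drought. The lowest drought array was above the highest control array by 0.19 for RCA1 and by 0.14 for PEPC1. How many of all probe sets separate under this centring was not counted, so nothing is read from these gaps. The SD of the drought arrays widened to 0.14 for RCA1 and 0.15 for PEPC1. Centring on the array medians gave 0.51 and 0.50, centring on the reporters 0.55 and 0.54, and quantile normalization 0.50 and 0.49, for RCA1 and PEPC1 in turn. The median of all probe sets moved along, from 0.12 as deposited to -0.13 with the spike-in centring. Relative to it RCA1 stood 0.48 higher, and any centring of whole arrays leaves the percentile of both genes as it is.

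**Figure D3:**
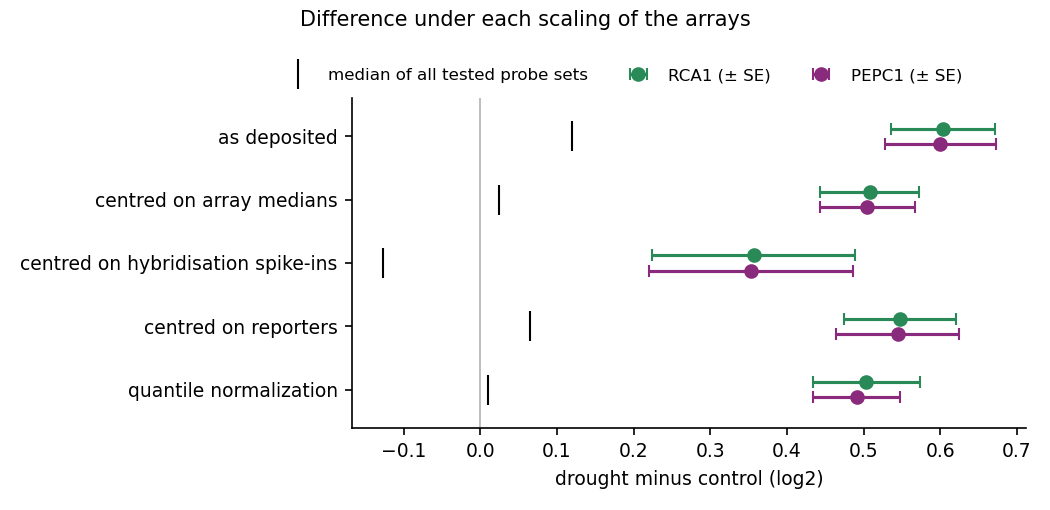
Drought minus control difference (log2) of RCA1 and PEPC1 with limma SE (n = 3 per group) as deposited and under 4 other scalings of the arrays; ticks mark the median of all tested probe sets under each. Both genes stay above 0 under all 5, from 0.60 as deposited down to 0.36 and 0.35 with the spike-in centring.

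The named genes closest to RCA1 and PEPC1 over the 6 arrays were then sought, by the root mean square difference of the centred log2 values. For RCA1 the nearest 5 of 245 genes were paC1 at 0.058, HrBP1 at 0.067, FeSOD, an iron superoxide dismutase, at 0.068, PEPC1 itself at 0.075 and Aux2 at 0.076. For PEPC1 they were Aux2 at 0.024, the vesicle traffic GTPase Rab7 at 0.044, the MAP kinase MPK3 (also listed as MPK6) at 0.046, HrBP1 at 0.051 and FeSOD at 0.056. The median distance to all 245 genes was 0.44 for each. RCA1 came in place 10 from PEPC1, while PEPC1 came in place 4 from RCA1.

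Aux2 had -0.28, -0.26 and -0.25 in control and 0.40, 0.25 and 0.35 in drought replicates 1, 2 and 3, so drought replicate 1 was highest there as on PEPC1. FeSOD had -0.23, -0.25 and -0.25 in control and 0.33, 0.29 and 0.23 in drought. Of all tested probe sets, 403 (1.68%) lay nearer to RCA1 than PEPC1 did, and 691 (2.88%) lay nearer to PEPC1 than RCA1 did. The distance takes in both the group difference and the array-to-array variation, and all probe sets share the same 6 arrays and the same centring.

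**Figure D4:**
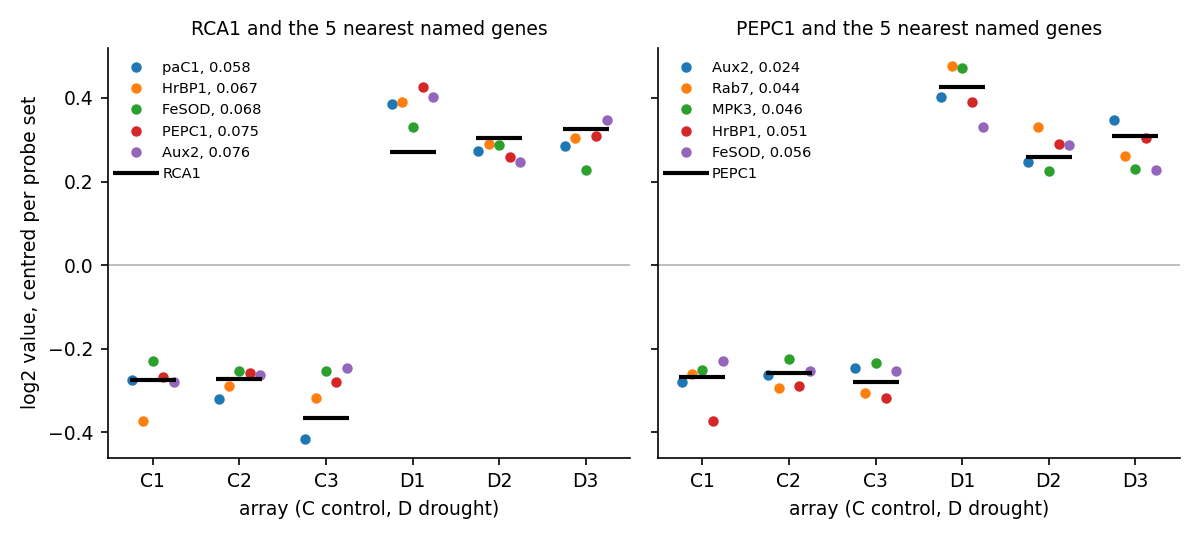
Log2 value, centred per probe set, on control arrays C1 to C3 and drought arrays D1 to D3, for RCA1 (left) and PEPC1 (right) as black bars and for the 5 nearest named genes of each as points, with the root mean square distance beside each name. The genes were picked for their closeness over these same 6 arrays, so the points lie near the bars by choice. On drought replicate 1 all 5 neighbours of RCA1 lie above it.

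Other genes of the same pathways were scarce among those with a name. Of a list of photosynthesis and carbon fixation genes drawn up by name, RCA1 was the 1 member found, and of a list for organic acid and PEP metabolism PEPC1 was the 1 member with a settled role. The small subunit of Rubisco and the light-harvesting proteins, the usual companions of Rubisco activase in a leaf, were not analysed here. PK1 (-1.18, limma SE 0.069) and TPS1 (-3.09, limma SE 0.18) matched by letters alone, and their roles are not settled by the tables used.

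Sucrose synthases split sucrose into fructose and UDP-glucose. Of 3 such genes 2 fell and 1 rose in limma, with a median of -1.93 against 0.12 over all probe sets, of which 20.4% fell and 35.3% rose. Sus1 fell by 1.93 (limma SE 0.077) and susC fell by 4.84 (limma SE 0.069), while SusA1 rose by 0.77 (limma SE 0.14). The other SusA1 probe set, of antisense design, gave 0.097 and did not pass.

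Enzymes of plastids, where Rubisco activase works, and of peroxisomes, where it does not, were set beside RCA1 as well, picked by gene name. Of 5 antioxidant enzymes of plastids and peroxisomes 4 rose and 1 fell, with a median of 0.44, beside 35.3% higher, 20.4% lower and a median of 0.12 over all probe sets. FeSOD rose by 0.53 (limma SE 0.067), sAPX, an ascorbate peroxidase of the chloroplast stroma, by 0.46 (limma SE 0.072), the catalase CAT2 by 0.44 (limma SE 0.067) and the glyoxysomal ascorbate peroxidase gAPX by 0.26 (limma SE 0.072). CSD2a, a copper/zinc superoxide dismutase, fell by 0.74 (limma SE 0.071). None of the 5 was raised as much as RCA1. After the spike-in centring 0 of the 5 passed as higher and 1 as lower, beside 16.6% higher and 30.2% lower over all probe sets. FeSOD then stood at 0.28 and sAPX at 0.22, beside 0.36 for RCA1; these differences between genes were not tested.

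Of 5 plastid fatty acid enzymes 2 rose and 3 fell, with a median of -0.67, where 35.3% of all probe sets rose and 20.4% fell. KAS2-1, a ketoacyl-ACP synthase that extends fatty acids, rose by 0.46 (limma SE 0.071) and the thioesterase FatB1 by 0.30 (limma SE 0.079), although another FatB1 probe set fell by 2.87. The condensing enzyme KASIII fell by 0.70 (limma SE 0.070), the desaturase sad1 by 1.84 (limma SE 0.077) and the omega-3 desaturase listed as 3FAD by 0.67 (limma SE 0.14). With the spike-in centring 0 passed as higher and 3 as lower, beside 16.6% higher and 30.2% lower over all probe sets. The differences of all 10 genes of these last lists were below that of RCA1 as deposited, which was not tested. RCA1 was chosen with its increase known, so nothing is read from this order.

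**Figure D5:**
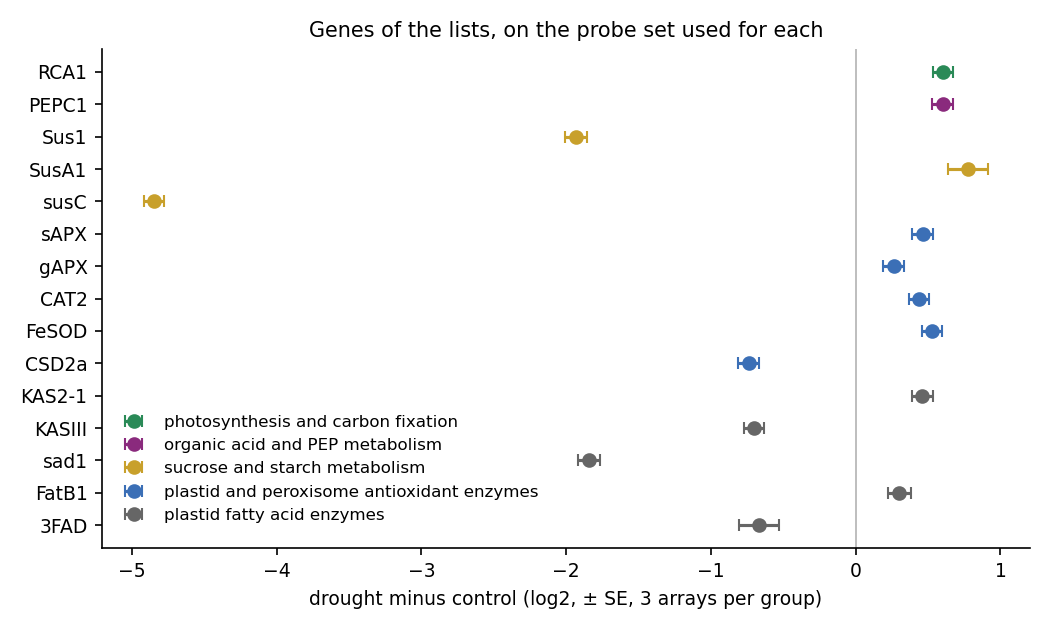
Drought minus control difference (log2) with limma SE (n = 3 arrays per group) for RCA1, PEPC1 and the genes of 3 further lists, 1 probe set per gene. RCA1 and PEPC1 at 0.60 lie above all but SusA1 (0.77). The probe set listed for susC (-4.84), which may hold EXP1 signal, is farthest below 0.

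Leaf identity could not be read from levels, because the values are centred. Of markers of other cotton tissues, 3 of 4 fibre genes fell and 1 rose, with array medians from 1.65 to 1.72 in control and from -1.94 to -1.60 in drought. The signal of these 3 was thus lower in the leaves where RCA1 and PEPC1 were higher, while the fourth, Fb2, was higher there by 0.47. Both flower markers fell, with array medians from 1.27 to 1.67 in control and from -1.65 to -1.27 in drought. Of all probe sets 20.4% fell and 35.3% rose. Of 4 seed markers 0 passed, with array medians from -0.024 to 0.15 in control and from -0.050 to 0.028 in drought. With the spike-in centring 2 seed markers passed as lower, beside 16.6% higher and 30.2% lower over all probe sets. The part of these shifts in the differences of RCA1 and PEPC1 was not tested.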

How the data were processed

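Leaf RNA of 6 samples was hybridised to 1 Affymetrix cotton array each, 3 control and 3 drought. The deposited values are log2 signals that the authors computed by RMA (submitters' processing notes, which give no version). The log2 scale and the direction (higher for more signal) are taken from RMA and the range of the values. Every probe set's median over the 6 arrays was 0 (largest absolute median 5e-07), so the values were centred before deposit and hold no level. Of 24132 probe sets, 103 Affymetrix controls were kept out, which left 24029, including 52 reporters. The gene table pairs 697 of these with 1 gene; all 697 were found in RefSeq (Gossypium_hirsutum_v2.1, used for names only), and 246 genes have an older name.

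Drought was compared with control with limma 3.58.1 in R 4.3.3 (lmFit and eBayes, two-sided, Benjamini-Hochberg over 24029 probe sets); the fit was checked on simulated arrays. The arrays of an arm are labelled biological replicates, but their plots are not named; p-values cover only the spread among these samples, part of which may be technical. The precision is limited by the number of arrays. For a gene with several probe sets, sense design came first, then IDs without a suffix, then _a_at, _s_at and _x_at. The genes named were all members, the 5 genes nearest to each by distance, and all genes of the lists. Members and lists were chosen with earlier results of these data known, and the plastid and peroxisome lists after the annotation had been seen. Dim probe sets could not be filtered, as centred values hold no level. No sequence is printed, as none was at hand.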

Additional observations from a re-analysis of the deposited data

Results flagged for a closer look

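Spike-in controls, which the comparison does not use, gave more signal on drought arrays. Hybridisation controls were higher by 0.25 log2 units and poly-A controls by 0.22, each as the difference of the mean array medians. They were picked out because their targets do not come from the leaf and yet lay above the level on control arrays. Their part in the differences of RCA1 and PEPC1 was not tested beyond the centring described above.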

How the results depend on the processing

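RCA1 and PEPC1 were chosen with their direction known, so only the sizes are given here. Their differences were 0.51 and 0.50 with arrays centred on their medians, 0.36 and 0.35 on the hybridisation spike-ins, 0.55 and 0.54 on the reporters, and 0.50 and 0.49 after quantile normalization. Fits without 1 of the arrays gave 0.57 to 0.62 for RCA1, 0.55 to 0.64 for PEPC1 and 11878 to 13092 called probe sets. Over all probe sets 13380 were called as deposited, 8485 higher and 4895 lower; 3989 were called higher and 7255 lower after centring on the spike-ins. The cause was not tested. The share of calls that were higher was 63.4% as deposited, 53.1% with median centring, 35.5% with spike-in centring, 57.7% with reporter centring and 50.9% after quantile normalization. With the replicate number as a block (replicate block), RCA1 gave 0.60 (SE 0.079) and PEPC1 0.60 (SE 0.081), with 13244 probe sets called. The numbers were not taken as pairs: deviations of same-numbered arrays correlated by 0.033, 0.045 and 0.074, each array best with its own number, which is a hint from the data only. Restricting to sense-design probe sets without a suffix left RCA1 as it was and gave no value for PEPC1. Only summarised, centred values were used, so signals of single probes and their height over background were not checked.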
